A study of Homo sapiens with 4 samples.

Results

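The genes described here encode TIMP1, TIMP2, TIMP3 and TIMP4, the 4 tissue inhibitors of metalloproteinases, RECK, a membrane-anchored inhibitor of metalloproteinases, and BSG (basigin, also called CD147 or EMMPRIN). They were taken by gene name from the authors' table, which held 1 row for each of the 6 names among 57815 genes. BSG is not an inhibitor. It is known as a surface protein of tumour cells that raises the production of matrix metalloproteinases (MMPs) in cells nearby, and it is treated here apart from the inhibitors. All 6 genes carried the status OK and averaged at least 0.5 FPKM over the cell lines, the minimum for a gene to be tested, so none was lost to the filter.

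The study compared MDA-MB-231, a triple-negative human breast cancer cell line, with LM2-4175, a cell line of the same origin that metastasises strongly to the lung and is named LM2 in the authors' table. Both were untreated and were grown in DMEM with fetal bovine serum. RNA-Seq was done on total RNA of 2 libraries per cell line, 4 in all, but the deposited table combines the libraries of a cell line in 1 FPKM (a level per length of transcript, corrected for how many fragments were mapped) with a lower and an upper bound. No value of a single library was therefore analysed, no SD or test between replicates could be computed, and each difference described compares the combined libraries of these cell lines.

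TIMPs are small proteins that sit in the active site of MMPs and block it. TIMP1 is a secreted inhibitor with a weak action on several membrane-anchored MMPs, whereas TIMP2 blocks MMP14 and, in a complex with it, also helps to activate the MMP2 precursor on the cell surface. TIMP3 is held in the extracellular matrix and inhibits ADAM and ADAMTS proteases as well. In tumours the balance between these inhibitors and the proteases bears on the breakdown of matrix, and TIMP1 is also known to signal through CD63 independently of any protease.

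Marker genes were looked at first. No difference between the cell lines was predicted for them, so they do not check which label belongs to which column. ESR1 and PGR, which encode the oestrogen and progesterone receptors, were at or below 0.0331 FPKM in both cell lines, while ERBB2 had 35.0 FPKM in MDA-MB-231 and 22.8 FPKM in LM2-4175. VIM, a mesenchymal filament gene, reached 1355 FPKM and 1768 FPKM. CDH1 (E-cadherin) was low, at 0.851 FPKM in MDA-MB-231 and 0.366 FPKM in LM2-4175. It was not called and met the minimum mean only through MDA-MB-231. The keratin genes KRT8 and KRT18 were both called lower in LM2-4175. Of 3 blood and endothelial markers used, CD3E was listed at 0, and the summed level of the list was 0.111 FPKM in MDA-MB-231 and 0.112 FPKM in LM2-4175. The 6 fibroblast markers summed to 19.9 FPKM and 35.9 FPKM. Among 5 tested, 1 was called higher (COL1A1) and 3 were called lower (PDGFRB, LUM and COL1A2). LUM and COL1A2 met the minimum mean only through MDA-MB-231. Over all genes tested 4.67% were called higher and 4.61% lower, and nothing is read from the counts of these markers. Because these are bulk samples, fewer cells with a transcript and less of it per cell cannot be told apart, and the part of these markers in the results was not tested.

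TIMP1 was the 1 gene of the 6 that was called different. A call required a change of at least 1.5-fold in FPKM + 1 and bounds that did not overlap, which held for 9.27% of the 13911 genes tested in either direction, for 4.67% higher and for 4.61% lower in LM2-4175. Of the 6 genes, 0 were called higher and 1 was called lower, and nothing about the group is read from a count this small.

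TIMP1 (ENSG00000102265, chromosome X of GRCh37, 47441807 to 47446188, plus strand) was at 394.9 FPKM in MDA-MB-231 cells (286.8 to 502.9). LM2-4175 cells had 199.7 FPKM of it (143.9 to 255.4). These ranges of the deposited bounds were 31.4 FPKM apart, and the gene was lower in LM2-4175 by 1.98-fold. The log2 ratio of FPKM + 1 was -0.98, below that of all but 4.10% of the genes tested. Taken at the outer ends of the bounds, the ratio of LM2-4175 to MDA-MB-231 ran from 0.286 to 0.891. TIMP1 ranked 213 by FPKM among all genes in MDA-MB-231 and 398 in LM2-4175, so it was a highly expressed gene in both cell lines. Among 986 genes with a mean of at least 100 FPKM, 5.27% were called lower.

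TIMP3 (ENSG00000100234, chromosome 22, 33197691 to 33259028, plus strand) had the next largest difference. Its level was 83.0 FPKM (64.2 to 101.8) in MDA-MB-231 cells against 52.5 FPKM (40.6 to 64.4) in LM2-4175 cells. The ratio was 0.633 and the log2 ratio -0.65, which is past 1.5-fold. The ranges shared only 0.216 FPKM, and TIMP3 was not called for this reason. By the fold alone, a rule that 11.8% of all genes tested met in the lower direction, TIMP1 and TIMP3 were both lower in LM2-4175. Both also met a rule of 1.5-fold with an unadjusted test on the standard errors at a threshold of 0.05, which 7.84% of the genes tested met in that direction. These standard errors were computed from the deposited bounds, and whether they cover the spread between libraries is not known.

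The difference in TIMP2 was small against its bounds. TIMP2 (ENSG00000035862, chromosome 17, 76849059 to 76921469, minus strand) stood at 209.8 FPKM (161.0 to 258.6) in MDA-MB-231 cells against 202.6 FPKM (155.6 to 249.7) in LM2-4175 cells. Its log2 ratio of -0.05 was close to the median of -0.04 over all genes tested and changed sign when the cell lines were scaled to the same sum or to the same median. The outer ends of the bounds allow a ratio between 0.602 and 1.55.

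TIMP4 and RECK were low in both cell lines. TIMP4 (ENSG00000157150, chromosome 3, 12194568 to 12200412, minus strand), a TIMP best known from heart and fat tissue, stood at 1.16 FPKM (0.677 to 1.64) in MDA-MB-231 cells against 1.59 FPKM (0.978 to 2.19) in LM2-4175 cells, a log2 ratio of 0.26 that was not called. RECK (ENSG00000122707, chromosome 9, 36036910 to 36124452, plus strand), whose protein is tied to the cell membrane by a lipid anchor, had 4.25 FPKM (2.65 to 5.84) and 3.92 FPKM (2.67 to 5.18). Its log2 ratio was -0.09, and the whole range in LM2-4175 lay within that in MDA-MB-231. The upper bound of TIMP4 lay 41.5% above its FPKM in MDA-MB-231 and that of RECK 37.5%, against 23.3% for TIMP2. A ratio from 0.598 to 3.24 for TIMP4 and from 0.457 to 1.95 for RECK lies within the bounds.

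BSG (ENSG00000172270, chromosome 19, 571277 to 583494, plus strand) had the highest level of the 6 genes. It stood at 521.1 FPKM (380.2 to 662.0) in MDA-MB-231 cells against 523.7 FPKM (380.1 to 667.3) in LM2-4175 cells. The log2 ratio was 0.01, and the bounds allow a ratio between 0.574 and 1.76. Thus the values of the MMP inducer lay almost on each other, within wide bounds. The bounds of TIMP1 lay apart, whereas those of TIMP3 shared 0.216 FPKM and TIMP3 was not called.

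**Figure D1:**
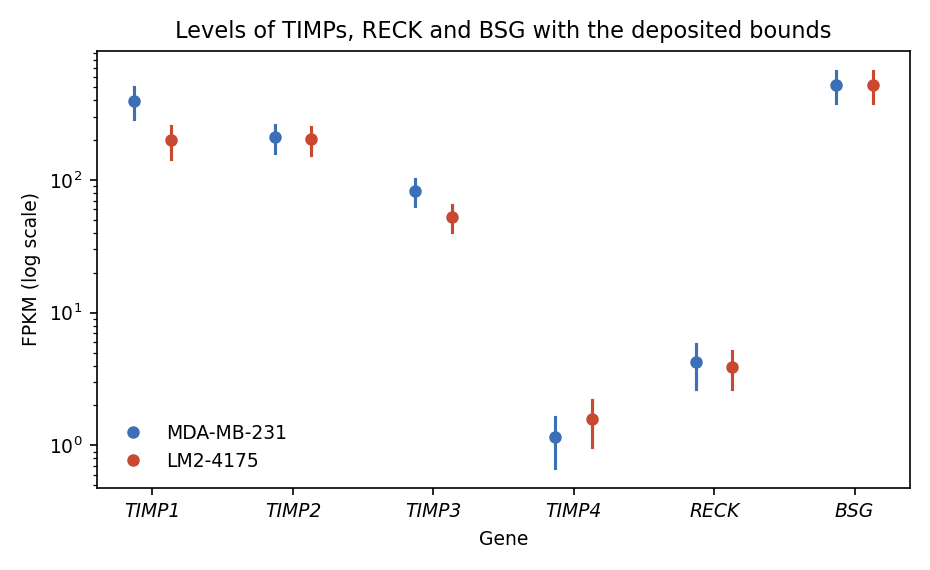
FPKM (log scale) of the 6 genes in MDA-MB-231 (blue) and LM2-4175 (red), where points are the deposited values of the combined libraries and lines run from the lower to the upper bound. The lines of TIMP1 do not meet, those of TIMP3 share 0.216 FPKM, and those of the other genes overlap widely.

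The order of the levels differed between the cell lines in 1 place. In MDA-MB-231 the order was BSG, TIMP1, TIMP2, TIMP3, RECK and TIMP4. TIMP1 was there 1.88-fold above TIMP2 with bounds apart, whereas the bounds of BSG and TIMP1 overlapped. In LM2-4175 the order was BSG, TIMP2, TIMP1, TIMP3, RECK and TIMP4. TIMP1 and TIMP2 were level there, with a TIMP1 to TIMP2 ratio of 0.985 and overlapping bounds, and BSG stood 2.58-fold above TIMP2 with bounds apart. Further down, neighbours in the order were apart by their bounds in both cell lines. TIMP3 was 19.5-fold above RECK in MDA-MB-231 and 13.4-fold above it in LM2-4175.

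The TIMP genes were then added up, since FPKM is a level per length of transcript. TIMP1 to TIMP4 summed to 688.8 FPKM in MDA-MB-231 and 456.4 FPKM in LM2-4175, a ratio of 0.663. Adding the lower and the upper bounds gave 512.6 to 865.0 FPKM and 341.1 to 571.7 FPKM, which overlap. TIMP1 made up 57.3% of this total in MDA-MB-231 cells against 43.7% in LM2-4175. TIMP2 held 30.5% and 44.4%, TIMP3 held 12.1% and 11.5%, and TIMP4 held 0.168% and 0.347%.

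**Figure D2:**
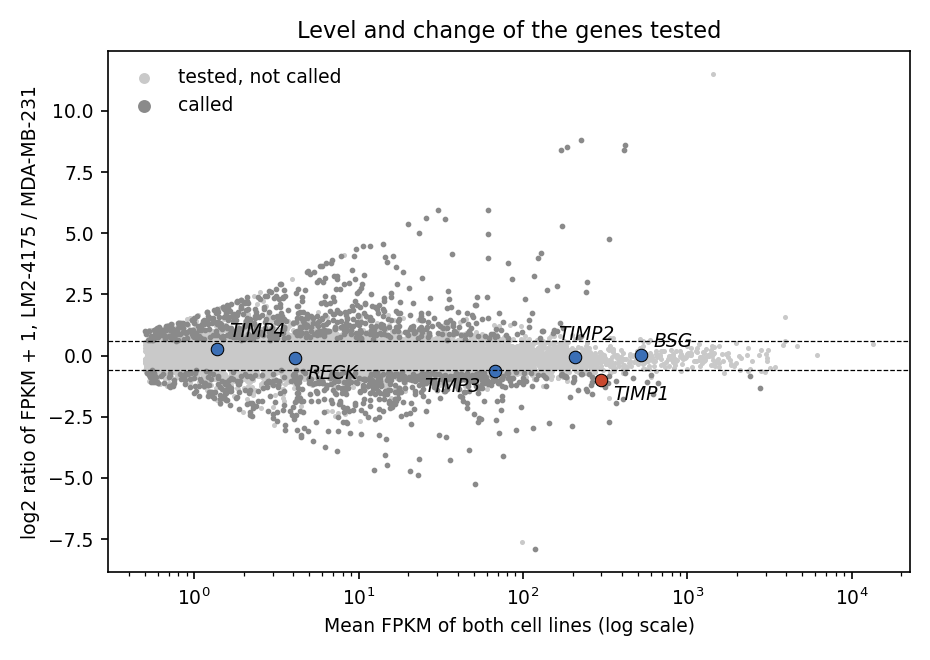
Mean FPKM of both cell lines (log scale) against the log2 ratio of FPKM + 1 for the 13911 genes tested (grey, darker where called), with the 6 genes on top (red where called, blue where not) and dashed lines at 1.5-fold. TIMP1 lies below the lower line at -0.98 and TIMP3 just below it at -0.65, while TIMP2, TIMP4, RECK and BSG lie between the lines.

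Where the genes lie was examined next. TIMP1, TIMP3 and TIMP4 lie within the synapsin genes SYN1, SYN3 and SYN2, each on the opposite strand. Since no source says that reads were counted by strand, reads of a TIMP gene and of its host could be mixed where exons overlap. The exons of TIMP1 (1446 bases in GENCODE 44 on GRCh37), those of TIMP3 and those of RECK overlap no exon of another gene. In TIMP4, 14.2% of the exon bases overlap exons of SYN2. The synapsin genes were almost silent, with 0.0775 FPKM in MDA-MB-231 and 0.0469 FPKM in LM2-4175 for SYN2, the highest of the 3. Exons of other genes cover 9.52% of TIMP2, mostly those of an antisense long non-coding RNA, and 3.17% of BSG.

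The neighbours of TIMP1 on chromosome X were also lower in LM2-4175. All 22 tested protein-coding genes that start within 1 Mb of the start of TIMP1 had a negative log2 ratio, with a median of -0.54. Of these, 2 were called lower and 0 higher, and ZNF630, not called, met the minimum mean only through MDA-MB-231. CDK16, which encodes a cyclin-dependent kinase and starts 365 kb before TIMP1, stood at 134.0 FPKM (96.9 to 171.1) in MDA-MB-231 cells against 64.6 FPKM (47.0 to 82.2) in LM2-4175 cells. CFP, which encodes the complement regulator properdin and starts 47.9 kb after TIMP1, had 12.5 FPKM (8.67 to 16.3) and 0.606 FPKM (0.0389 to 1.17). The kinase gene ARAF, the nearest tested neighbour at 21.2 kb, had 50.1 FPKM (27.3 to 72.9) and 28.8 FPKM (15.7 to 41.9) and was not called.

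TIMP1 lay 0.44 below the median of these neighbours on the log2 scale, and CDK16 and CFP were the 2 of 22 with a lower log2 ratio. Over the 390 tested protein-coding genes of chromosome X the log2 ratio had a median of 0.10, with 35 called higher and 43 lower. Over all 13911 genes tested, 649 (4.67%) were called higher and 641 (4.61%) lower. The chromosome thus had calls in both directions, and in each direction they made up a larger share of its genes than over all genes tested. For comparison, 4339 tested protein-coding genes had at least 20 tested neighbours within the same distance, and all neighbours were below 0 for 19 of these (0.438%) and all above 0 for 32. These windows overlap, so they are not independent. Whether the change in TIMP1 is shared with its region or is its own was not tested, and the number of copies of the region was not analysed here.

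**Figure D3:**
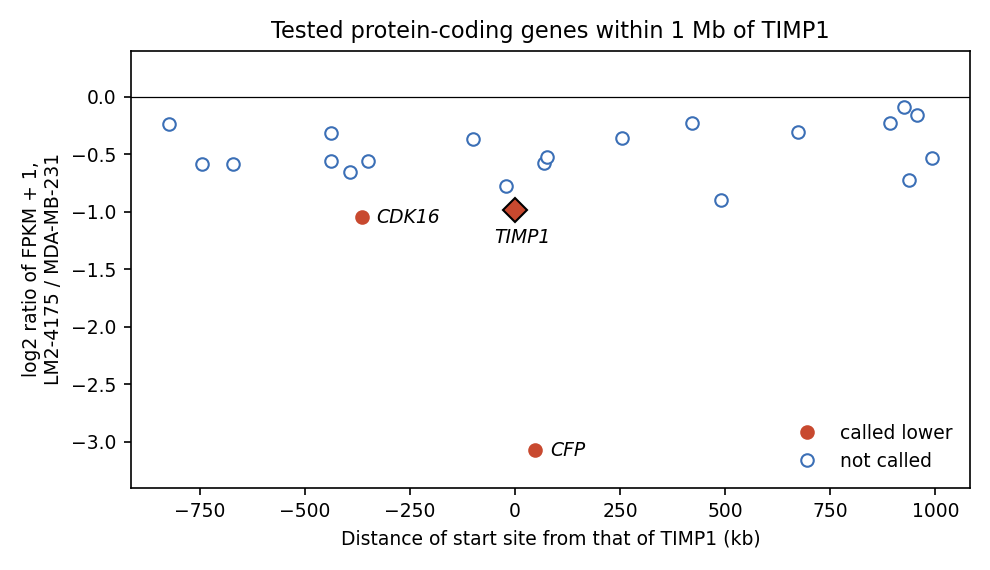
Distance of the start site from that of TIMP1 (kb) against the log2 ratio of FPKM + 1 for the 22 tested protein-coding genes within 1 Mb (circles, filled where called lower) and for TIMP1 (diamond). Every circle lies below 0, 20 of them between -0.09 and -0.90, with CDK16 at -1.04 and CFP at -3.07.

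The surroundings of the other 5 genes were mixed. Within 1 Mb of TIMP3 only 3 protein-coding genes were tested, with log2 ratios of -0.64, -0.14 and 0.02 and none called. Around TIMP2 7 genes were above 0 and 11 below, around RECK 12 and 14, and around BSG 21 and 18. Around TIMP4 7 of 9 were above 0, with a median of 0.31, and TIMP4 itself had 0.26.

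The promoters of TIMP1 and TIMP3 are shown because these genes had the largest differences of the 6. Each is given as the 250 bases before the start site in RefSeq (GRCh38.p14, chrX:47582186-47582435 and chr22:32801455-32801704, both on the plus strand), 5′ to 3′, with CpG dinucleotides, the sites of DNA methylation, in capitals.
TIMP1: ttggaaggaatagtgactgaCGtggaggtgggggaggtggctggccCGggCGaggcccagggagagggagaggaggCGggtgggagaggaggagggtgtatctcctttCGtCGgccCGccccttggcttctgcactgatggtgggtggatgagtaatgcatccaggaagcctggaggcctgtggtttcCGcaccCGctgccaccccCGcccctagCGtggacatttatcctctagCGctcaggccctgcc
TIMP3: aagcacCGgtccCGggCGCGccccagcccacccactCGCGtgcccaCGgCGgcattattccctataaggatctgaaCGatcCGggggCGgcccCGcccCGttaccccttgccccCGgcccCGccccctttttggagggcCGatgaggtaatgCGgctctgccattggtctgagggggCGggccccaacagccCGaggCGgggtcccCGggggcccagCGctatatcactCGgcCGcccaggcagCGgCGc
The TIMP1 window held 12 CpG and 64.8% G and C, and the TIMP3 window held 26 CpG and 72.4% G and C. The median of 35116 windows of the same length was 11 CpG, and 80.4% of them had fewer CpG than TIMP3. GGGCGG, the GC box that SP1 proteins bind, contains a CpG by its sequence. It was found on either strand 2 times in TIMP1 and 5 times in TIMP3, and 42.6% of all windows hold at least 1. The table gives no methylation or binding, so these are features of the reference only.

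The proteases that TIMPs block were compared with them. Among 16 genes of secreted MMPs, the FPKM was higher in LM2-4175 for 8 and lower for 6, and 2 were listed at 0 in both cell lines. Only MMP1, MMP11 and MMP19 reached 0.5 FPKM in each cell line, and of these 1 was called higher and 0 lower. Over all genes tested 4.67% were called higher and 4.61% lower, and nothing about the group is read from this count. MMP1, which encodes interstitial collagenase, rose from 22.7 FPKM (17.1 to 28.2) to 643.3 FPKM (484.0 to 802.7). The gelatinase genes MMP2 and MMP9 were also called higher, at much lower levels, but they and MMP3 met the minimum mean only through LM2-4175, where they were high, so nothing about the group is read from their calls. MMP2 stood at 0.177 FPKM (0 to 0.457) in MDA-MB-231 cells against 5.40 FPKM (3.44 to 7.37) in LM2-4175 cells, and MMP9 had 0.189 FPKM (0.0543 to 0.324) and 0.907 FPKM (0.477 to 1.34).

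None of 5 tested genes of 6 membrane-type MMPs was called (0 by the bounds and the fold together). Over all genes tested 4.67% were called higher and 4.61% lower, and nothing is read from this count. The median log2 ratio of the 5 membrane-type genes was 0.38, also over the 3 that reached 0.5 FPKM in each cell line. The highest of them, MMP14, the main cell surface partner of TIMP2, had 141.0 FPKM (106.8 to 175.2) and 215.3 FPKM (161.5 to 269.1). This is a ratio of 1.53 with overlapping bounds. MMP16 had 0.394 FPKM (0.0833 to 0.705) and 1.41 FPKM (0.704 to 2.11), with bounds that met only at their ends. It met the minimum mean only through LM2-4175 and was called higher once the cell lines were scaled to the same sum or to the same median. MMP14 had 0.672 times the FPKM of TIMP2 in MDA-MB-231 cells and 1.06 times in LM2-4175 cells.

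The 22 listed MMPs summed to 175.8 FPKM (127.0 to 227.3 by adding the bounds) in MDA-MB-231 cells, against 883.2 FPKM (653.9 to 1125) in LM2-4175 cells. TIMP1 to TIMP4 therefore had 3.92 times the FPKM of the MMPs in MDA-MB-231 and 0.517 times in LM2-4175. Most of this rested on MMP1. Without MMP1 the MMPs summed to 153.1 FPKM and 239.8 FPKM, and the TIMPs had 4.50 times and 1.90 times as much. For these MMPs the added bounds overlap, with LM2-4175 at 169.9 to 322.4 and MDA-MB-231 at 109.9 to 199.1. Those of TIMP1 to TIMP4 overlap as well, so the change from 4.50 to 1.90 rests on sums that the bounds do not separate. MMP1 was 17.4-fold below TIMP1 in MDA-MB-231 and 3.22-fold above it in LM2-4175. These are ratios of transcripts per length and not of proteins or activities.

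Among 10 genes of ADAM and ADAMTS proteases that TIMP3 can inhibit, 6 were tested, with 1 called higher and 1 called lower. Over all genes tested 4.67% were called higher and 4.61% lower, and nothing about this or the following lists is read from such counts. The median log2 ratio was -0.12, or 0.05 without ADAM28, which met the minimum only through MDA-MB-231. ADAM10, a sheddase of cell surface proteins, fell from 79.4 FPKM (57.9 to 100.9) to 37.7 FPKM (27.4 to 48.0). ADAMTS1, a secreted protease of proteoglycans, rose from 2.03 FPKM (0.642 to 3.42) to 7.16 FPKM (3.55 to 10.8). ADAM17, which releases TNF from the membrane, had 15.03 FPKM (10.4 to 19.7) and 15.6 FPKM (11.4 to 19.8) and was not called.

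Among 7 genes for proteins that bind TIMPs, all tested, 1 was called higher and 1 lower, against 4.67% and 4.61% of all genes tested. The median log2 ratio was 0.19. EFEMP1, which encodes fibulin-3, a matrix protein that binds TIMP3, had the largest fall, from 129.2 FPKM (98.1 to 160.3) to 13.4 FPKM (9.84 to 17.0). This 9.62-fold difference was larger than that of any TIMP. KDR, the VEGF receptor gene whose product TIMP3 can bind, rose from 0.971 FPKM (0.634 to 1.31) to 2.48 FPKM (1.78 to 3.19). The TIMP1 receptor gene CD63 was at 361.2 FPKM (274.5 to 448.0) and 364.8 FPKM (279.3 to 450.3). Next to a TIMP1 that was 1.98-fold lower, the levels of CD63 overlapped almost fully.

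Among 9 other inhibitors with metalloproteinase targets, 6 were tested, with 1 called higher and 0 lower, against 4.67% and 4.61% of all genes tested. The median log2 ratio was 0.06, or 0.18 without A2M, which met the minimum only through MDA-MB-231. The 1 called was SPOCK1, which encodes the proteoglycan testican-1, and it rose from 0.760 FPKM (0 to 1.58) to 5.91 FPKM (2.84 to 8.97). TFPI2, the most highly expressed of them, had 24.8 FPKM (16.3 to 33.3) and 28.2 FPKM (18.97 to 37.3).

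Of 8 partners of basigin, 6 were tested, with a median log2 ratio of -0.33. Of these, 1 was called lower and 0 higher, against 4.61% and 4.67% of all genes tested. The 1 called was SLC7A5, which encodes an amino acid transporter subunit, with 113.1 FPKM (86.0 to 140.2) and 53.9 FPKM (40.8 to 66.9). Basigin takes monocarboxylate transporters to the membrane. SLC16A3, which encodes the lactate exporter MCT4, had 168.1 FPKM (115.7 to 220.6) and 140.7 FPKM (92.9 to 188.4) and was not called, while SLC16A1 (MCT1) was under the minimum at 0.131 FPKM and 0.682 FPKM. PPIA, the gene of the basigin ligand cyclophilin A, had 3653 FPKM (2641 to 4664) and 2313 FPKM (1715 to 2911), a ratio of 0.633 with overlapping bounds.

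Neither of the basigin relatives NPTN and EMB was called. NPTN had 95.8 FPKM (68.2 to 123.4) and 115.5 FPKM (82.4 to 148.6). RECK acts with GPR124 as a receptor complex for WNT7 proteins, and of these 3 partner genes WNT7B alone was tested. It had 6.86 FPKM (5.13 to 8.60) and 8.53 FPKM (6.41 to 10.7) and was not called.

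**Figure D4:**
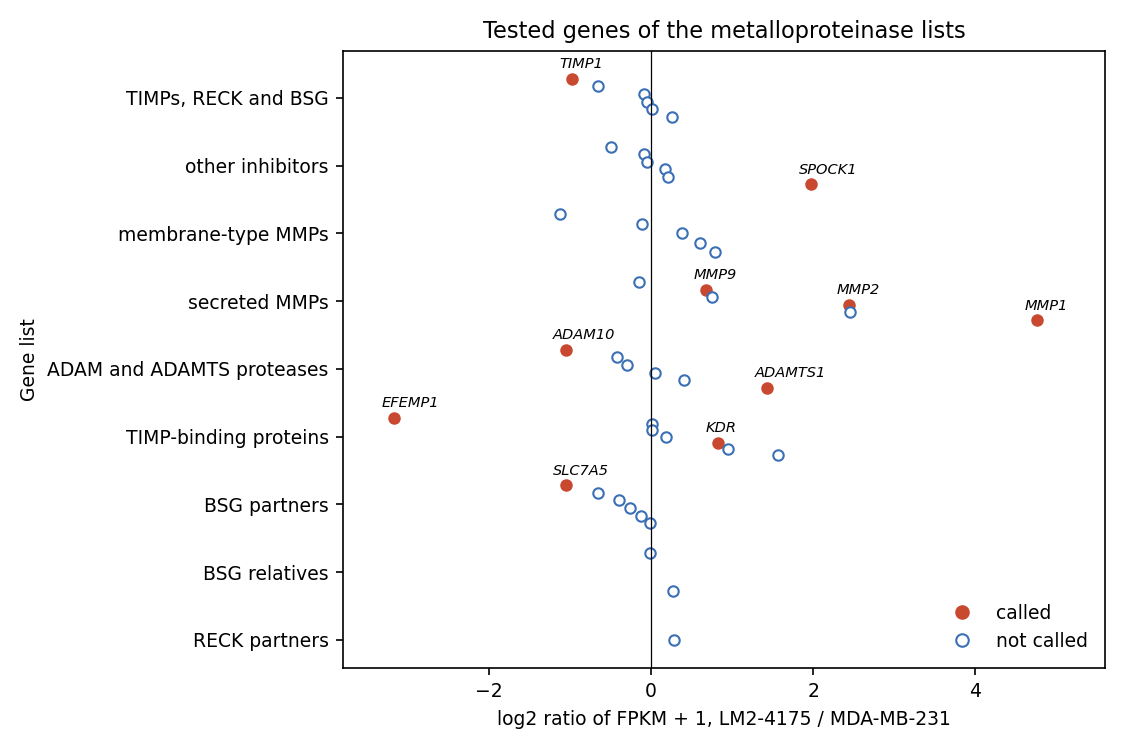
Log2 ratio of FPKM + 1 for the tested genes of each list (filled where called, open where not), with TIMP1 to TIMP4, RECK and BSG in the top row. In the top row 5 of the 6 genes lie between -0.65 and 0.26 and TIMP1 lies at -0.98. The tested secreted MMPs reach from -0.15 to 4.77. Of these, MMP2, MMP3 and MMP9 met the minimum mean only through LM2-4175. MMP28, with a log2 ratio of -0.745, was under the minimum and is not drawn. The spread of this list therefore depends in part on the filter, and nothing is read from it against the top row.

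Genes with the most similar levels in the cell lines were sought by the distance in log2(FPKM + 1), which rests on 2 values only. For TIMP1 these were CKS2 (368.1 and 192.4 FPKM) and GSTP1 (427.5 and 189.8 FPKM), and no protein-coding gene lay within a distance of 0.1. For TIMP3 they were SSNA1 and PLK1, with 15 genes within 0.1, and for TIMP2 NONO and TMED10, with 13. For BSG they were RPS15 and CANX with 5, for RECK ZNF670 and PCBD2 with 44, and for TIMP4 THAP2 and ASPHD2 with 22. With so few values, likeness of this kind is mostly a likeness of level.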

How the data were processed

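RNA-Seq of MDA-MB-231 and LM2-4175 was analysed. According to the study's methods and the submitters' processing notes, total RNA was made into TruSeq libraries, paired reads were aligned to hg19 with TopHat2, and GENCODE v19 genes were quantified with Cufflinks and cuffdiff. The values that the authors deposited are FPKM, 1 per gene and cell line, with bounds. The scaling between libraries, any use of strand and what the bounds cover are not given in the sources used here. The table gives no read counts, so no interval was computed from depth and precision was read from the bounds.

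Genes needed the status OK for each cell line and an average of at least 0.5 FPKM. For these the log2 ratio of FPKM + 1 was computed in Python 3.11.15 with NumPy 2.4.6, SciPy 1.17.1 and pandas 2.3.3 and drawn with Matplotlib 3.10.9. Ratios of low genes are understated on this scale. Genes were called at 1.5-fold with bounds that did not overlap. For the standard error, the upper bound less the FPKM was divided by 2. An FPKM of 0 can be a failed estimate, because EEF1A1 is listed at 0 with the status HIDATA, so such genes are only said to be listed at 0. Positions came from GENCODE 44 on GRCh37, matched by Ensembl ID for 55535 genes. The processing was repeated under 10 alternatives.

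The genes and the lists around them were chosen with earlier results of these data known. Named are all 6 genes, the called genes of each list or else its highest gene, and the 2 nearest genes by level. ADAM17, ADAM28, A2M, MMP3, MMP11, MMP16, MMP19, MMP28, LRP1, ZNF630, CD63, SLC16A1, SLC16A3, PPIA, EMB, TFPI2, CDK16, CFP, ARAF and the marker genes given with values were chosen after their values were seen. Of the markers fixed for other cell types, 1 is not reported here.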

Additional observations from a re-analysis of the deposited data

How the results depend on the processing

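Of 60 values of the log2 ratio over the 6 genes and 10 alternatives, 55 kept their direction and their side of the threshold. TIMP1 ranged from -0.98 to -0.90 over the alternatives and was called under all of them except a fold threshold of 2, where its log2 ratio of -0.98 fell short and 0 genes of the 6 were called lower. TIMP3 ranged from -0.66 to -0.57. With its log2 ratio of -0.65, TIMP3 was called by the fold alone and by the fold with the unadjusted test on the standard errors, each of which gave 2 genes called lower. TIMP2 turned to 0.032 with FPKM scaled to the same sum (TPM) and to 0.0035 with the median log ratio set to 0, and was never called. RECK stayed below 0 and TIMP4 and BSG above 0 under each alternative, and none of these was called. Over the surrounding lists, with 39 genes tested, the fold alone raised the counts to 12 higher and 5 lower from 6 and 3. Over all 13911 genes tested, the fold alone gave 1434 higher and 1640 lower, from 649 and 641. Nothing about the lists is read from these counts. The upper bounds of the 6 genes lie at least 22.6% above the FPKM, so small differences were not separable at this precision.

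Around TIMP1, other windows were chosen after seeing the data. The log2 ratio was below 0 for 13 of 13 tested genes within 0.5 Mb, 41 of 44 within 2 Mb and 48 of 54 within 5 Mb, and for 22 of 22 within 1 Mb under either scaling. No paired analysis was possible because the table combines the libraries of a cell line in 1 value, and no library was left out for the same reason.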

Other observations

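Among the MMP genes, MMP3 (stromelysin-1) had 0.0241 FPKM in MDA-MB-231 and 4.60 FPKM in LM2-4175, but its bounds in LM2-4175 ran from 0 to 17.9 and it was not called. MMP28 was at 0.676 FPKM (0.134 to 1.22) in MDA-MB-231 cells and listed at 0 in LM2-4175, and it was not tested because its mean was under the minimum. Of the 16 secreted MMPs, 9 were under 0.5 FPKM in both cell lines, 2 of them listed at 0 in both. LRP1, the gene of an endocytic receptor that takes up TIMP complexes, had 5.15 FPKM (0.638 to 9.65) and 17.2 FPKM (5.72 to 28.7), a ratio of 3.34 with overlapping bounds that was not called.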
